A study of Homo sapiens with 9 samples.

Results

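RND1 hairpin sh-34 was compared with a scramble hairpin in MCF10A cells, a non-tumorigenic, immortalized human mammary epithelial line of basal-like character. The comparison used 6 of the 9 samples of the series, taken by their titles, 3 titled RND1-sh-34 and 3 titled scramble control. All 9 samples carried a lentivirus that delivers a short hairpin RNA, and all were selected with puromycin, so the scramble cells shared the infection and the selection. The other 3 samples carried a second RND1 hairpin, sh-35, and served to ask whether a change differed between hairpins. Total RNA was extracted with Trizol, labelled with biotin and read on Illumina bead arrays. The labels do not say when cells were harvested or if replicates grew as separate cultures, so the p-values cover the spread among the arrays used and that spread may be technical. No hairpin sequence was at hand, and sh-34 is 1 hairpin, so an effect of lowering RND1 and any effect of this hairpin on other transcripts cannot be told apart.

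RND1 encodes a small GTPase that stays bound to GTP because it hardly hydrolyses it. RND proteins loosen actin stress fibres and adhesion to the substrate, and they bind the cytoplasmic part of plexins, the receptors of semaphorins. Plexins act in turn on R-Ras and Rap GTPases, which set integrin activity. Basal mammary epithelial cells rest on a laminin matrix through hemidesmosomes and integrins, and hold to each other through cadherins, desmosomes and tight junctions.

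Each array carried 48803 probes, and 11473 to 12902 of them on each array (23.5% to 26.4%) gave a signal above background, with a detection p under 0.01. Probes that passed this level on at least 3 of the 9 arrays were kept, and the brightest probe of each gene stood for it, which left 8931 genes. Levels are log2 normalized signals, so a difference of 1 is a 2-fold change, and levels of different genes are not comparable because each probe has its own brightness. Across genes, which are not independent replicates, Pearson's r was 0.993 to 0.994 between arrays of a group and 0.969 to 0.973 between scramble and sh-34 arrays. The first principal component of the 6 arrays held 73.6% of the variance and separated the 3 sh-34 arrays, at 18.6 to 19.2, from the 3 scramble arrays, at −17.9 to −20.1. The median within-group SD of a gene was 0.12 on the log2 scale, and the number of arrays limits the precision.

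RND1, the targeted gene, could not be followed. Its probe passed the detection level on 0 of 9 arrays. The deposited signals were 33.8, 49.6 and 34.4 in scramble and 30.8, 39.5 and 28.1 in sh-34, below the 110.1 of the dimmest detected probe. The loss of RND1 in the sh-34 samples was therefore not checked, and no level is given for it.

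With sh-34, 1693 genes were higher (19% of those tested) and 1654 were lower (18.5%) at a limma adjusted p under 0.05. The 3347 genes called in either direction were 37.5% of all tested, which is the background against which the counts below are read. Most changes were small, with a median absolute log2 difference of 0.46 among called genes, and 2297 of the called genes changed by less than 1.5-fold. At least 2-fold changes were 258, or 2.89% of tested genes, of which 110 (1.23%) were higher and 148 (1.66%) lower. These are fitted values, and 69 of the 258 genes lay below background on every array of 1 group, of which 6 have a bound of at least 2-fold. The 3 sh-34 values lay wholly above or wholly below the 3 scramble values in 4469 genes (50%), and in 3278 of the called genes. Called rises under 1.5-fold depended on the scaling between arrays. With arrays scaled to a common median in place of quantile normalization, 668 of these 1232 rises were called, and 1010 of the 1065 falls of that size. The 351 rises and 441 falls of 1.5-fold to 2-fold, and the 258 larger changes, were all called under both scalings.

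**Figure D1:**
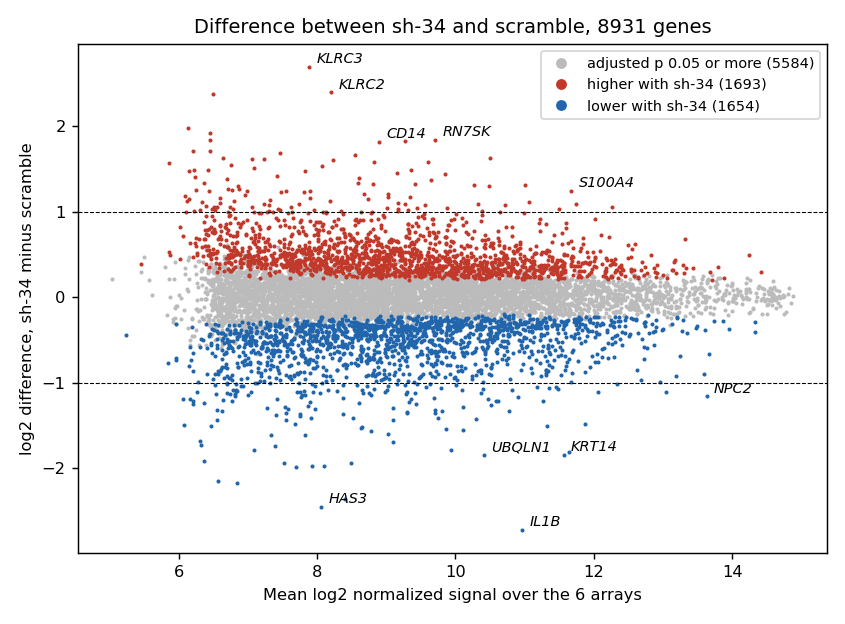
Log2 difference between sh-34 and scramble (vertical axis) against the mean log2 normalized signal over the 6 arrays (horizontal axis), 1 point for each of 8931 genes. Red points are the 1693 genes called higher and blue points the 1654 called lower at a limma adjusted p under 0.05, and dashed lines mark a 2-fold change. IL1B lies lowest and KLRC3 highest.

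Among the 20 largest rises, KLRC3 and KLRC2 came first. Both encode receptor chains of the NKG2 family of natural killer cells. KLRC3 read 6.65, 6.52 and 6.46 in scramble and 9.27, 9.16 and 9.26 in sh-34, a log2 difference of +2.69 (SE 0.10; limma adjusted p = 3.5e-08). Only 1 of 3 scramble arrays was above background for KLRC3, so this size rests partly on background signals. KLRC2 read 6.91, 7.12 and 6.99 in scramble and 9.28, 9.32 and 9.61 in sh-34, a difference of +2.40 (SE 0.12; adjusted p = 1.9e-07). These genes are alike enough in sequence that 1 transcript may give both signals. Of the 9 natural killer receptor genes listed, 6 were above background on no array of either group.

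RN7SK, the small nuclear RNA that holds the elongation factor P-TEFb inactive, rose from 8.69, 8.83 and 8.84 to 10.48, 10.65 and 10.76, a difference of +1.84 (SE 0.09; adjusted p = 1.9e-07). A further RN7SK probe gave +2.29. CD14, the co-receptor of bacterial lipopolysaccharide, rose from 8.04, 7.94 and 7.99 to 9.84, 9.87 and 9.71, and its log2 difference was +1.81 (SE 0.08; adjusted p = 9.3e-08). The second CD14 probe gave +1.89, so both probes of both genes stood apart between the groups. How far RN7SK entered the labelled RNA was not tested, so its difference is a difference in array signal. CYP4V2, a fatty acid hydroxylase, rose by +1.82 (SE 0.09), PLAC8 by +1.66 (SE 0.12), and RHOBTB3 by +1.62 (SE 0.12). RHOBTB3 was above background on only 1 of 3 scramble arrays.

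PHACTR3, a regulator of protein phosphatase 1 that binds actin, read 9.75, 9.60 and 9.69 in scramble and 11.20, 11.44 and 11.28 in sh-34 (+1.63, SE 0.09). CYGB, the oxygen-binding globin cytoglobin, differed by +1.68 (SE 0.12) and RGCC, a regulator of the cell cycle, by +1.58 (SE 0.11). CYGB was above background on 2 of 3 scramble arrays. For 8 of the 20 rises no scramble array was above background, so their folds are lower bounds set against the dimmest signal called above background. H2BC8, a histone H2B gene, was at least 2.32-fold higher, NWD1 at least 2.05-fold and CD163L1, a scavenger receptor gene, at least 1.76-fold. SCNN1B, which encodes a sodium channel chain, was at least 1.70-fold higher, ETNK2, an ethanolamine kinase, at least 1.65-fold, and ADHFE1 at least 1.59-fold. LAPTM5, a lysosomal membrane protein, was at least 1.39-fold and ANKK1 at least 1.33-fold higher. The remaining members of these 20 were H4C8 and SCNN1G, described below.

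IL1B, the cytokine interleukin-1 beta, fell most. It read 12.23, 12.31 and 12.43 in scramble and 9.63, 9.61 and 9.57 in sh-34, 6.57-fold lower (log2 SE 0.10; limma adjusted p = 3.5e-08). HAS3, a hyaluronan synthase of the plasma membrane, fell from 9.36, 9.23 and 9.26 to 6.84, 6.503 and 7.16, 5.46-fold (SE 0.15; adjusted p = 8.1e-07). FOLR3, a secreted folate-binding protein, fell by 2.36 on the log2 scale (SE 0.13). No sh-34 array reached a scramble array for these genes, a condition of their choice. HAS3 was above background on 2 of the 3 sh-34 arrays.

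KRT14, the keratin of basal epithelial cells, read 12.51, 12.52 and 12.43 in scramble and 10.66, 10.64 and 10.64 in sh-34, 3.59-fold lower (SE 0.07; adjusted p = 3.5e-08). CA12 and CA2 encode carbonic anhydrases, which interconvert carbon dioxide and bicarbonate. CA12 fell by 1.81 (SE 0.09; its other probe by 2.32) and CA2 by 1.79 (SE 0.08; its other probe by 1.75). HSD17B2, which inactivates oestradiol, fell from 8.85, 8.87 and 8.99 to 6.91, 6.92 and 6.97, and MARCKSL1, a substrate of protein kinase C that binds actin, fell by 1.94 (SE 0.13). KIF3B, a motor subunit of kinesin-2, fell by 1.94 (SE 0.10; other probe 1.78), PEX19, an import receptor of peroxisomal membrane proteins, by 1.69 (SE 0.10), and GOLPH3L, a Golgi protein, by 1.99 (SE 0.08). GPRC5A, an orphan receptor induced by retinoic acid, fell by 1.74 (SE 0.17). With sh-34, GPRC5A was above background on 1 of 3 arrays, and GOLPH3L and MARCKSL1 on 2, so these sizes rest partly on background signals.

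For 6 of the 20 falls no sh-34 array was above background. TNFRSF10D, a decoy receptor of the death ligand TRAIL, was at least 2.63-fold lower, WDR7 at least 2.52-fold and MOB3B, a relative of the Hippo pathway adaptors of the MOB family, at least 2.07-fold. FCRLA was at least 1.66-fold lower, the hair keratin gene KRT34 at least 1.51-fold and the protease inhibitor gene SERPINB13 at least 1.47-fold. Probes disagreed for 2 of the large falls. UBQLN1, a ubiquitin-binding shuttle of the proteasome, fell by 1.84 at its brightest probe (SE 0.07) and by 0.49 and 0.54 at its other probes. PNKD fell by 1.97 at its brightest probe (SE 0.10), while its other probe differed by +0.05 (SE 0.12; adjusted p = 0.785). All 40 of these genes were called in the same direction under every alternative processing in which they were tested. The alternative that kept only probes above background on every array did not test the genes that failed this, such as FCRLA and KRT34.

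**Figure D2:**
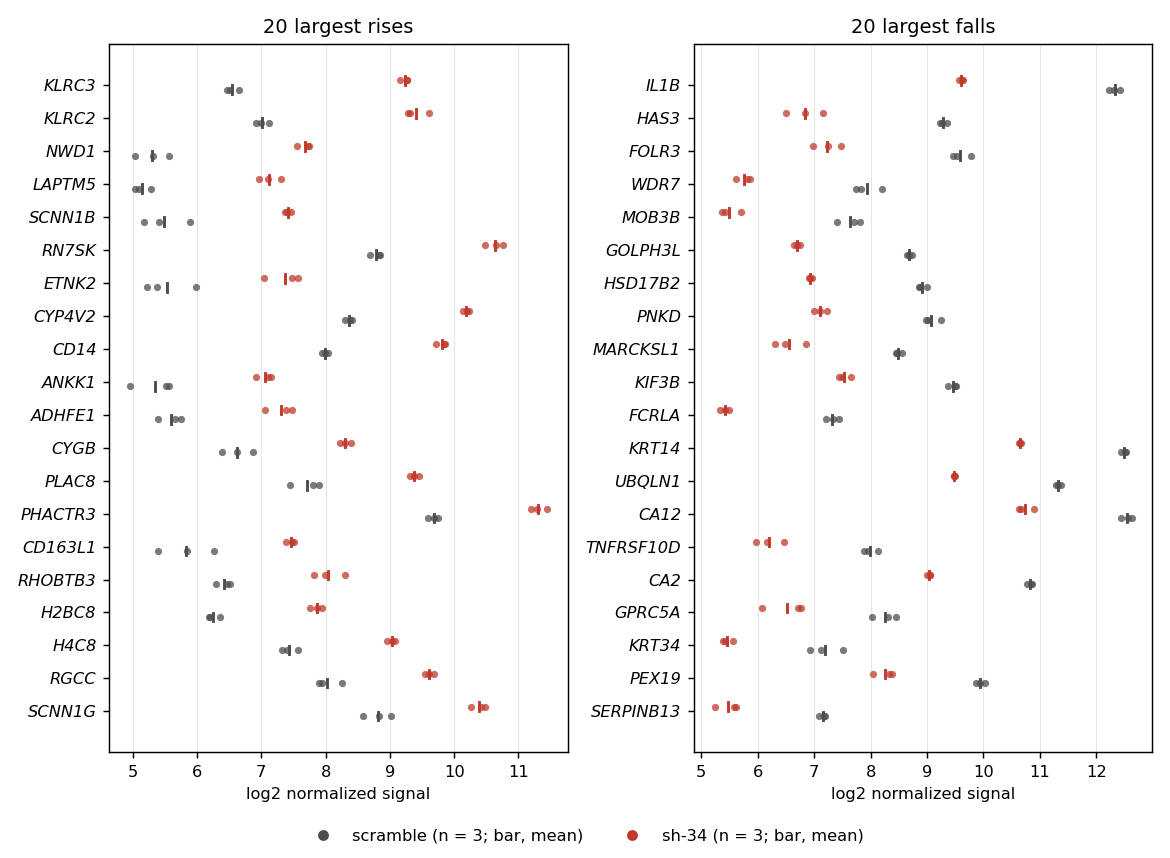
Log2 normalized signal (horizontal axis) of the 20 genes with the largest rises (left) and the 20 with the largest falls (right), 1 dot per array, with 3 scramble (grey) and 3 sh-34 (red) arrays and a bar at each mean. The groups do not overlap for any gene shown, which was a condition for naming these rises and falls. Of the rises, 8 lie below background on every scramble array, and of the falls, 6 lie below background on every sh-34 array.

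Among histone genes, 13 of 16 tested rose and 0 fell. Replication-dependent histones package newly made DNA and their transcripts end in a stem-loop in place of a poly(A) tail. How far transcripts without a tail entered the labelled RNA was not tested, so the differences below are differences in array signal. H2B transcription is known to depend on an octamer element bound by OCT1. Since the finding is a set of clustered genes that moved together, the 250 bases before the start are shown for 3 of them that rose and for 1, H2BC11, that did not pass the test. Sequences are from RefSeq (GRCh38.p14), all on the minus strand, printed 5′ to 3′ in the direction of transcription. Capitals mark CCAAT, the TATA box letters TATAAA and also the octamer ATTTGCAT, each on either strand, and the motifs may overlap.
H2BC8 (chr6:26216689-26216938): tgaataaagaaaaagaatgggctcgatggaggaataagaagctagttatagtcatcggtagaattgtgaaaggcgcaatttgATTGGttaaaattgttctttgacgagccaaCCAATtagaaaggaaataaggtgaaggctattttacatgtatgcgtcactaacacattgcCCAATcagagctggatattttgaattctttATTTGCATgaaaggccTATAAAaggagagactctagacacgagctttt
H2BC21 (chr1:149886683-149886932): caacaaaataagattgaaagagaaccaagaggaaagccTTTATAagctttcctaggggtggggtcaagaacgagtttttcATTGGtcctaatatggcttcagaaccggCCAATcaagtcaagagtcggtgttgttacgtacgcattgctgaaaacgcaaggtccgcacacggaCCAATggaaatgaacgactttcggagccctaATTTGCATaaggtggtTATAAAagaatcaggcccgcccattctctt
H4C8 (chr6:26285535-26285784): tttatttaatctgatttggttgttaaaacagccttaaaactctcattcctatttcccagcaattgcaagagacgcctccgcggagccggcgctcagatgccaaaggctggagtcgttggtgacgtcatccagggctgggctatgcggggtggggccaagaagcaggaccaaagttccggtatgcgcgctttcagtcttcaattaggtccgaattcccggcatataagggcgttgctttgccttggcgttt
H2BC11 (chr6:27132796-27133045): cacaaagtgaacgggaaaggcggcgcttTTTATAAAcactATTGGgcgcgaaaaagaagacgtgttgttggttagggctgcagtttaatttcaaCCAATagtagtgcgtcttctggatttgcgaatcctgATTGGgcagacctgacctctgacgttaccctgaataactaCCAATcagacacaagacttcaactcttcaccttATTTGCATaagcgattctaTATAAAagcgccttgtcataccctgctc

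Of 37 listed histone genes, 35 had a probe and 16 were tested. With sh-34, 13 of the 16 rose, 0 fell and 3 did not pass, with a median log2 difference of +0.97 against +0.02 over all tested genes. H4C8, a histone H4 gene, rose from 7.40, 7.57 and 7.32 to 9.04, 9.08 and 8.96 (+1.598, SE 0.10; limma adjusted p = 1.1e-06). H2BC21 rose from 8.06, 7.81 and 7.87 to 9.33, 9.37 and 9.20 (+1.39, SE 0.09). H1-2, a linker histone gene, rose from 9.95, 9.71 and 9.85 to 11.05, 11.10 and 11.27 (+1.30, SE 0.09). In all of these the sh-34 arrays lay wholly above the scramble arrays.

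H2BC5 rose by +1.11 (SE 0.08), H3C4 by +1.05 (SE 0.15), H2AC6 by +0.89 (SE 0.08), H2AC20 by +0.82 (SE 0.09) and H2AC18 by +0.81 (SE 0.11). H2BC6, below background on every scramble array, was higher by at least 1.32-fold. The members that did not pass were H4C3 at +0.23 (SE 0.11), H1-10 at +0.15 (SE 0.09) and H2BC11 at −0.02 (SE 0.10), the last with overlapping groups at 9.13 to 9.22 and 9.12 to 9.18. Histone genes of a class have closely similar coding sequences, so a probe may read relatives of the gene it is named for. Of 8 tested genes for histone transcript processing and supply, 1 rose and 0 fell, with a median of +0.09.

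RefSeq start sites were matched for 15 of the 16, 10 on chromosome 6, 4 on chromosome 1 and 1 elsewhere. CCAAT stood in 12 of the 15 windows against 32.0% of 35116 windows of the same length, and TATAAA in 11 against 10.7%. The octamer stood in 9 against 1.63% of all windows, in 6 of 7 H2B windows and 3 of 8 others. Neighbouring divergent genes such as H2BC21 and H2AC20 share much of 1 window. H2BC11 holds all 3 motifs and H4C8, which rose by +1.598, holds none of these exact letters. CCAAT stood in 11 of 13 windows of genes that rose and 1 of 2 others. TATAAA stood in 9 of 13 and 2 of 2, and the octamer in 8 of 13 and 1 of 2. With only 2 windows of genes that did not pass, a relation between motifs and response was not tested.

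**Figure D3:**
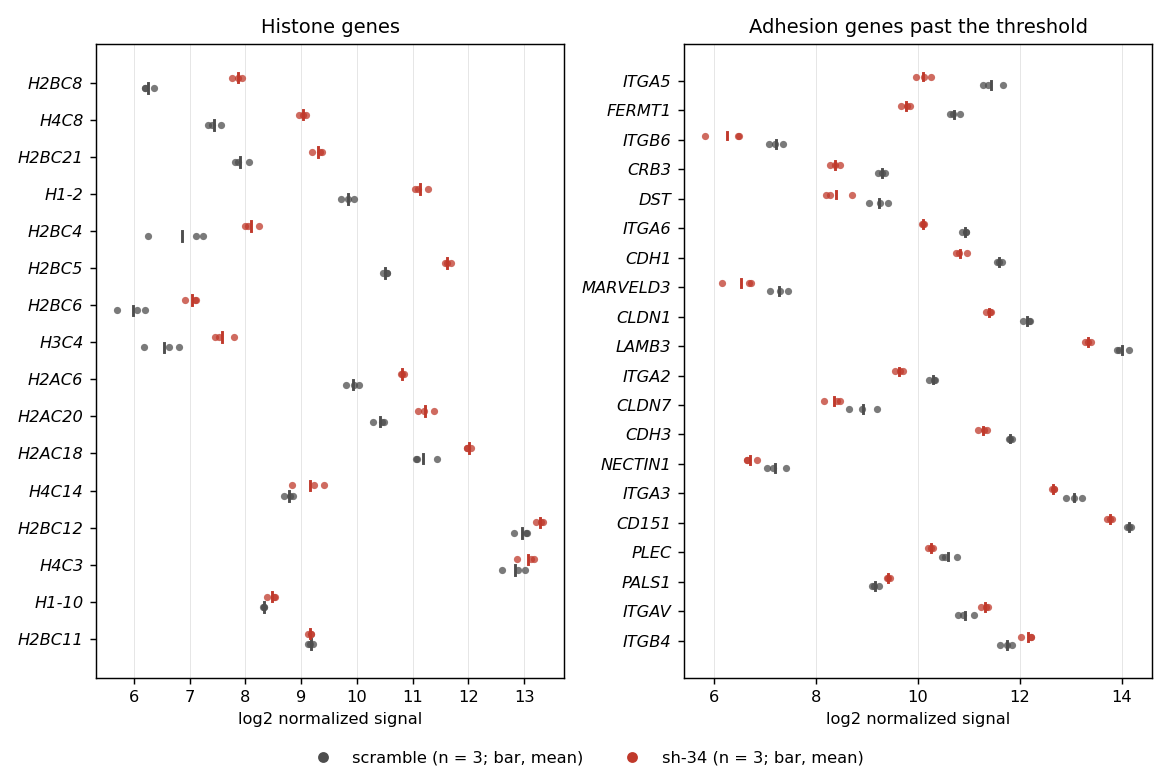
Log2 normalized signal (horizontal axis) of the 16 tested histone genes (left) and of the 20 genes for hemidesmosomes, integrins, tight junctions and adherens junctions that passed the threshold (right), 1 dot per array, with 3 scramble (grey) and 3 sh-34 (red) arrays and a bar at each mean. The groups are apart for H2BC8 and overlap for H2BC11, and 17 of the 20 adhesion genes were lower with sh-34. Members that did not pass are left out, and desmosome genes, 2 higher and 2 lower of 9 tested, are not plotted. Over all tested genes, 19% were higher and 18.5% lower.

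Cell division genes rose by less than the histones. In G2 and mitosis, 27 of 41 tested genes rose, 1 fell and 13 did not pass, with a median of +0.33. CENPF, a kinetochore protein, rose from 8.96, 8.74 and 9.05 to 9.78, 9.81 and 9.57 (+0.80, SE 0.10; limma adjusted p = 0.00011). TOP2A, the topoisomerase that untangles mitotic chromosomes, rose by +0.77 (SE 0.08), as did the B-type cyclin gene CCNB2 (+0.77, SE 0.08). The count was 17 of 41 with arrays scaled to a common median and 14 with the series matrix values, with medians of +0.28 and +0.26. KIF4A, a chromokinesin, read 7.30, 7.33 and 6.92 against 6.99, 6.68 and 6.84, and its groups overlapped (−0.35, SE 0.12; adjusted p = 0.045). In DNA replication and S phase, 8 of 33 rose, 1 fell and 24 did not pass, a share below that of all genes, and 2 of the 33 were called higher under median scaling. The histone genes thus stood at a larger difference than the replication genes of the same phase.

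Regulators of G1 moved in both directions. CCND1, cyclin D1, fell from 13.31, 13.55 and 13.49 to 12.43, 12.48 and 12.47, 0.99 lower on the log2 scale by the means of its arrays (SE 0.08; limma adjusted p = 6.8e-06). Its partner kinase gene CDK6 fell by 0.50 (SE 0.08). CDKN1B, which encodes the inhibitor p27, rose by +0.60 (SE 0.10), and RBL2, a retinoblastoma relative, by +0.50 (SE 0.09). Of the 12 tested cyclin D and inhibitor genes, 3 rose, 4 fell and 5 did not pass. CDKN1A, which encodes the inhibitor p21, gave opposite answers at its probes, −0.41 at the brighter (SE 0.07) and +0.33 at the dimmer (SE 0.10).

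Inflammatory genes did not move as 1 group. In the interleukin-1 family, 2 of 6 tested genes fell and 1 rose. IL1A, the membrane-held relative of IL1B, fell from 13.21, 13.17 and 13.10 to 12.19, 12.17 and 12.21, by 0.97 (SE 0.07; limma adjusted p = 2.8e-06). CASP1, the protease that activates IL1B protein, rose from 10.06, 9.91 and 10.18 to 10.71, 10.69 and 10.75 (+0.66, SE 0.10). Of 11 chemokine and cytokine genes, 3 rose, 2 fell and 6 did not pass. CSF3, the granulocyte growth factor gene, fell by 1.08 (SE 0.10). Of 14 genes for NF-kB subunits and feedback, 5 rose, 2 fell and 7 did not pass, with a median of +0.06.

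Among 10 antimicrobial and acute-phase genes, 3 rose, 3 fell and 4 did not pass. S100A8 and S100A9 encode the subunits of calprotectin, which withholds metals from microbes. S100A8 fell from 12.47, 11.67 and 12.09 to 10.58, 10.48 and 10.65, by 1.504 (SE 0.16; limma adjusted p = 3.3e-05), and S100A9 fell by 0.85 (SE 0.17). LCN2, the siderophore-binding lipocalin, rose from 6.91, 6.99 and 6.76 to 7.93, 7.50 and 7.64 (+0.81, SE 0.14). Of 30 interferon-stimulated genes, 13 rose, 2 fell and 15 did not pass, with a median of +0.19, and 8 were called higher with the series matrix values. IFIT2, an RNA-binding antiviral protein, rose from 7.93, 7.65 and 7.95 to 8.75, 8.85 and 8.95 (+1.01, SE 0.11). IFI27 went the other way, from 10.51, 10.50 and 10.89 to 9.39, 9.45 and 9.79 (−1.09, SE 0.17), as did TRIM22 (−0.80, SE 0.12). In antigen presentation 3 of 13 rose, 1 fell and 9 did not pass.

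Among growth factor signalling genes, falls and rises were found for receptors and ligands, and falls alone for ERK feedback genes. MCF10A cells depend on EGF, whose receptor signals through ERK. HBEGF, a ligand of the EGF receptor, fell from 9.83, 10.03 and 9.995 to 8.78, 8.75 and 8.77, by 1.19 (SE 0.09; limma adjusted p = 2.2e-06), and the ligand gene TGFA by 0.93 (SE 0.08). EGFR itself fell from 10.50, 10.70 and 10.58 to 10.01, 9.96 and 10.03, by 0.59 (SE 0.08). LRIG1, which promotes the breakdown of EGF receptors, rose by +0.74 (SE 0.09). Of the 8 tested genes of ligands and receptors, 4 fell, 3 rose and 1 did not pass.

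Of 15 ERK feedback and ETS target genes, 9 fell, 0 rose and 6 did not pass, with a median of −0.37. ETV4, an ETS factor, fell from 7.58, 7.48 and 7.68 to 6.72, 6.82 and 6.57, by 0.88 (SE 0.10). IER3 fell by 0.66 (SE 0.10), PHLDA1 by 0.64 (SE 0.09), and the ERK phosphatase gene DUSP6 by 0.43 (SE 0.10). In the AP-1 and immediate early list, JUN fell by 0.69 (SE 0.09) and FOS by 0.63 (SE 0.09), whereas KLF4 rose by +0.97 (SE 0.10). That list held 3 rises, 5 falls and 9 genes that did not pass of 17.

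Genes that hold cells to the basement membrane were lower. Of 7 tested hemidesmosome and laminin-332 genes, 6 fell and 1 rose, with a median of −0.66. FERMT1, which encodes the integrin activator kindlin-1, fell from 10.69, 10.83 and 10.63 to 9.80, 9.66 and 9.84, by 0.95 (SE 0.08; limma adjusted p = 8.7e-06). ITGA6, the laminin-binding integrin chain of hemidesmosomes, fell from 10.86, 10.94 and 10.95 to 10.10, 10.08 and 10.12, by 0.82 (SE 0.10). DST, which ties hemidesmosomes to keratin, fell by 0.85 (SE 0.14), and LAMB3, the laminin beta 3 chain, by 0.66 (SE 0.09). The LAMB3 call was lost when its probes were averaged. ITGB4, the partner of ITGA6, was the riser, at +0.41 (SE 0.10), and was not called under median scaling or with the series matrix values.

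Outside hemidesmosomes, 4 of 8 tested integrin genes fell, 1 rose and 3 did not pass. ITGA5, the fibronectin receptor chain, read 11.28, 11.67 and 11.38 in scramble and 10.26, 10.12 and 9.96 in sh-34, 2.52-fold lower (SE 0.11; limma adjusted p = 5.8e-06). ITGB6 fell by 0.94 (SE 0.17) and ITGA2, a collagen receptor chain, by 0.65 (SE 0.09). Of 10 hyaluronan and proteoglycan genes, 5 fell, 1 rose and 4 did not pass. SDC4, the syndecan of focal adhesions, fell from 10.76, 11.05 and 10.98 to 9.73, 9.90 and 9.95, by 1.07 (SE 0.09), and GPC1 by 0.80 (SE 0.09). CD44, a hyaluronan receptor, read 13.56, 13.70 and 13.53 against 13.45, 13.61 and 13.55 and did not pass the test (−0.06, SE 0.08; adjusted p = 0.61).

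Cell-cell junction genes were lower in part. Tight junctions and polarity had 4 falls and 1 rise among 7 tested genes, with a median of −0.57. CRB3, an apical polarity protein, fell from 9.23, 9.35 and 9.30 to 8.38, 8.48 and 8.28, by 0.92 (SE 0.09; limma adjusted p = 1.5e-05). CLDN1, a claudin that seals the space between cells, fell by 0.75 (SE 0.10). In adherens junctions 3 of 7 tested genes fell and 0 rose. CDH1, E-cadherin, fell from 11.60, 11.65 and 11.54 to 10.96, 10.81 and 10.74, by 0.76 (SE 0.09; adjusted p = 5.6e-05), and CDH3, P-cadherin, by 0.52 (SE 0.08). Desmosome genes were split, with 2 of 9 higher, 2 lower and 5 that did not pass. DSC2, a desmosomal cadherin, fell by 1.22 (SE 0.09) and DSG2, another, rose by +0.48 (SE 0.10).

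Squamous differentiation genes fell. Cornified envelope proteins harden the outer layer of stratified epithelia. Of 13 tested genes of this list, 9 fell, 1 rose and 3 did not pass, with a median of −0.53. SPRR1B, a proline-rich envelope protein, fell by 1.36 (SE 0.16; limma adjusted p = 5.8e-05), and its relative SPRR2D from 9.68, 10.24 and 9.63 to 8.74, 8.73 and 8.70, by 1.13 (SE 0.14). CALML3, a calmodulin-like protein, was at least 1.53-fold lower, with no sh-34 array above background. Of 11 keratin genes, 6 fell, 0 rose and 5 did not pass. Beside KRT14, KRT15 fell from 11.24, 10.72 and 11.06 to 9.52, 9.52 and 9.72, by 1.42 (SE 0.14), the stress keratin gene KRT16 by 0.92 (SE 0.10) and KRT5, the partner of KRT14, by 0.42 (SE 0.08).

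Surface proteases of epithelia followed a mixed course. PRSS8, prostasin, fell from 10.54, 10.82 and 10.54 to 9.22, 9.05 and 9.003, by 1.54 (SE 0.10; limma adjusted p = 1.2e-06). KLK5, a kallikrein of skin shedding, was at least 1.73-fold lower. PRSS23 rose by +1.08 (SE 0.08) and SPINT1, an inhibitor of matriptase, by +0.66 (SE 0.15). In the list, 4 of 8 fell, 2 rose and 2 did not pass. Of 11 S100 genes, which encode small calcium-binding proteins, 8 fell, 1 rose and 2 did not pass. The riser S100A4, a motility-associated member, read 11.05, 11.05 and 11.06 in scramble and 12.32, 12.23 and 12.33 in sh-34, 2.36-fold higher (SE 0.08; adjusted p = 9.7e-07). S100A2 fell by 0.90 (SE 0.08), and S100A14 and S100A3 by 0.79 each.

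Markers of both mammary lineages were above background in both groups. On any of the 6 arrays, 11 of 13 basal markers and 10 of 17 luminal markers with a probe were above background. Of 11 tested basal markers, 7 fell, 2 rose and 2 did not pass, and of 9 luminal markers 5 fell, 1 rose and 3 did not pass. ALDH1A3, a retinaldehyde dehydrogenase of luminal progenitors, fell by 1.49 (SE 0.10) and CD24 by 0.85 (SE 0.08), whereas the mucin gene MUC1 rose from 10.26, 10.20 and 10.09 to 11.05, 11.36 and 11.37 (+1.08, SE 0.14; limma adjusted p = 0.00013). The summed signal of the basal markers was 59080 to 60890 in scramble and 47320 to 49030 in sh-34. That of the luminal markers was 29980 to 34980 and 20790 to 22500. In bulk samples, fewer cells of a type and less RNA per cell cannot be told apart.

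The counts of rises in several lists depended on the scaling, because rises under 1.5-fold do. Under median scaling, the rises numbered 1 of 11 chemokine and cytokine genes, 2 of 14 NF-kB genes, 1 of 8 EGF receptor ligand and receptor genes, 3 of 21 lysosomal genes, 3 of 64 ribosomal protein genes and 1 of 13 each for antigen presentation and for plexins. They numbered 2 in the ATF4, NRF2 and matrix protease lists, 3 among metallothioneins and 1 in oxidative phosphorylation. Falls went from 2 to 4 in the NRF2 list and from 1 to 3 in oxidative phosphorylation. The histone list kept 11 rises and 0 falls.

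**Figure D4:**
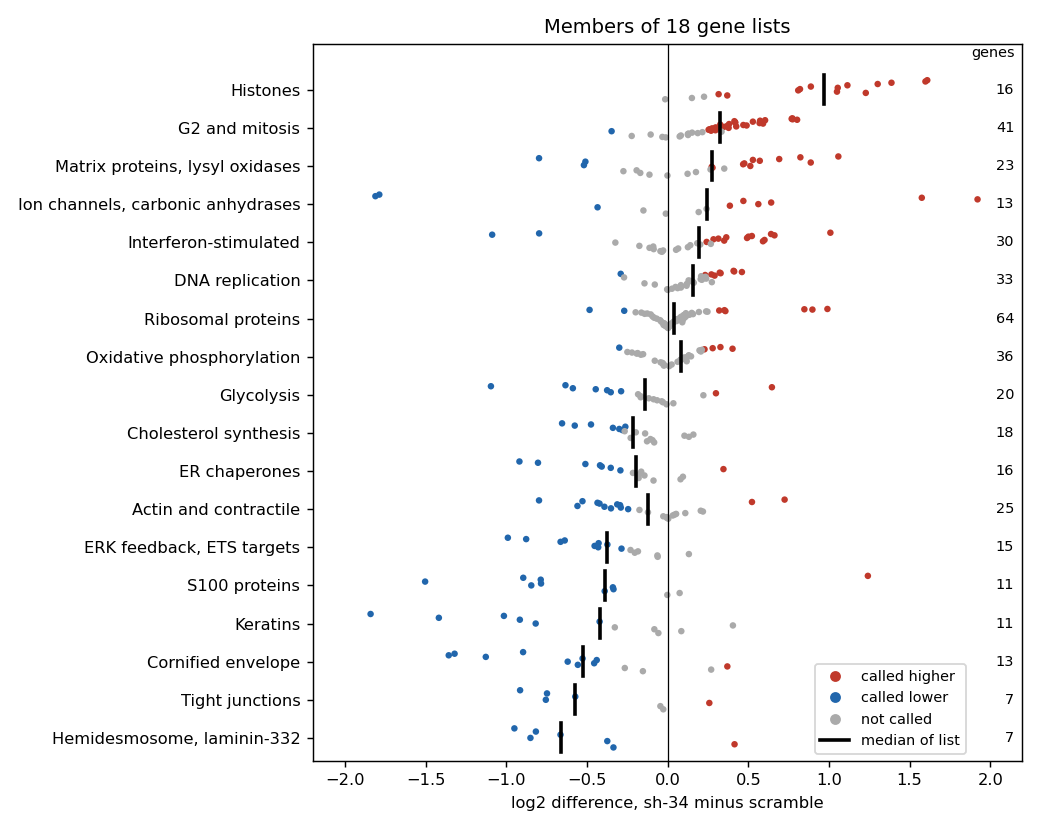
Log2 difference between sh-34 and scramble (horizontal axis) of every tested member of 18 gene lists, 1 dot per gene, red where called higher, blue where called lower and grey where not called at a limma adjusted p under 0.05. Black bars are list medians and the number at the right is the count of tested genes, so the histone median lies at +0.97 and the hemidesmosome and laminin-332 median at −0.66.

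Plexins are the receptors that RND proteins bind. Of 13 plexin, semaphorin and neuropilin genes, 3 rose, 2 fell and 8 did not pass. SEMA6A was at least 1.67-fold lower, with no sh-34 array above background. SEMA3F, a secreted repellent ligand, fell from 8.79, 8.77 and 8.95 to 7.92, 8.03 and 8.08, by 0.83 (SE 0.08), and the receptor gene PLXNA1 rose by +0.63 (SE 0.12). In the Ras, R-Ras and Rap list, 3 of 11 fell, 1 rose and 7 did not pass, with RASSF5, a Rap effector that activates integrins, lower by 0.69 on the log2 scale of its means (SE 0.09). Of 7 ephrin and Eph receptor genes 3 fell, 0 rose and 4 did not pass.

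Actin and contractile genes fell by small amounts, 11 of 25, with 2 higher and 12 that did not pass and a median of −0.12. TPM4, a tropomyosin, fell by 0.80 (SE 0.10), MYL9, a myosin light chain, by 0.56 (SE 0.16), and TAGLN, an actin cross-linker, by 0.53 (SE 0.09). ACTA2, smooth muscle actin, rose, with no overlap between the groups (+0.73, SE 0.09; limma adjusted p = 7.2e-05). ACTB read −0.18 and did not pass.

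Matrix genes were higher more often than lower, with 11 of 23 higher, 3 lower and 9 that did not pass, and a median of +0.27. COL8A1, a short-chain collagen, rose from 11.76, 11.65 and 11.80 to 12.65, 12.78 and 12.95 (+1.06, SE 0.09; limma adjusted p = 7.6e-06). COL4A2 and COL4A1, the paired chains of basement membrane collagen, rose by +0.89 (SE 0.18) and +0.69 (SE 0.10). LOX, which cross-links collagen, rose by +0.82 (SE 0.10). CCN1, a matricellular target of YAP, fell by 0.80 (SE 0.10) and THBS1 by 0.51 (SE 0.10). Mesenchymal genes were mixed, 5 higher, 2 lower and 8 that did not pass of 15, and VIM, the intermediate filament vimentin, rose from 14.11, 14.04 and 13.85 to 14.50, 14.47 and 14.53 (+0.49, SE 0.08).

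Protease inhibitors of the serpin family split, 3 of 11 higher and 4 lower. SERPINE2, an inhibitor of thrombin and urokinase, fell from 13.62, 13.64 and 13.52 to 12.52, 12.54 and 12.39, by 1.11 (SE 0.08; limma adjusted p = 2.1e-06). SERPINA1, alpha-1 antitrypsin, rose by +1.09 (SE 0.11). In the plasminogen and matrix protease list of 14, 4 rose, 3 fell and 7 did not pass, with PLAT, the tissue plasminogen activator, higher (+0.83, SE 0.11) and PLAUR, the urokinase receptor, lower by 0.57 (−0.57, SE 0.13).

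Developmental signalling genes went both ways. The share called was 50% in the WNT list, 33.3% in TGF-beta and BMP, 54.5% in Notch and 50% in YAP. Over all tested genes it was 37.5%. WNT7A, a secreted WNT ligand, fell from 8.17, 8.56 and 8.08 to 6.84, 6.83 and 6.84, by 1.44 (SE 0.12; limma adjusted p = 5.9e-06), and SFRP1, a secreted WNT antagonist, fell by 0.74 (SE 0.08). In the WNT list, 4 of 12 rose, 2 fell and 6 did not pass. Of 15 TGF-beta and BMP genes, 3 rose, 2 fell and 10 did not pass. The receptor genes TGFBR3 and TGFBR2 rose by +0.93 (SE 0.08) and +0.68 (SE 0.08), the activin antagonist FST fell by 0.96 (SE 0.10) and the BMP target ID1 by 0.77 (SE 0.09). In the Notch list, 5 of 11 fell, 1 rose and 5 did not pass, with HES1 lower (−0.59, SE 0.10). In the YAP list, 5 of 12 fell, 1 rose and 6 did not pass, with the kinase gene NUAK2 lower (−1.19, SE 0.11).

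Biosynthetic genes leaned lower. ACLY, which makes cytosolic acetyl-CoA for lipids, fell from 12.53, 12.77 and 12.55 to 11.42, 11.70 and 11.40, by 1.11 (SE 0.10; limma adjusted p = 1.4e-05). In fatty acid synthesis 5 of 14 tested genes fell, 0 rose and 9 did not pass, with a median of −0.15. In cholesterol synthesis and uptake 7 of 18 fell, 0 rose and 11 did not pass, with a median of −0.21. The shares called, 35.7% and 38.9%, were near the 37.5% of all tested genes, and 18.5% of all were lower. HK2, the inducible hexokinase, fell from 9.05, 8.71 and 8.74 to 7.66, 7.80 and 7.75, by 1.10 (SE 0.14). Glycolysis held 7 falls, 2 rises and 11 genes that did not pass of 20, and GAPDH read +0.04. In the hypoxia list, 7 of 15 fell, 1 rose and 7 did not pass, including CA12 and the angiogenic factor gene VEGFA, which fell by 1.02 (SE 0.12).

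Amino acid transport and folding genes fell in part. SLC7A5 and SLC3A2 encode the chains of a large neutral amino acid transporter. SLC7A5 fell from 13.47, 13.84 and 13.61 to 12.71, 12.75 and 12.71, by 0.92 (SE 0.10; limma adjusted p = 4.7e-05), and SLC3A2 by 0.91 (SE 0.08). SHMT2, a mitochondrial serine hydroxymethyltransferase, fell by 0.90 (SE 0.08). In the ATF4 list of 20, 8 fell, 4 rose and 8 did not pass. HYOU1, a chaperone of the endoplasmic reticulum, fell by 0.92 (SE 0.12), and of 16 genes of this compartment's folding response 7 fell, 1 rose and 8 did not pass.

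Of 64 cytosolic ribosomal protein genes 6 rose, 2 fell and 56 did not pass, with a median of +0.04, and RPL37 (+0.99, SE 0.10), RPL28 (+0.90, SE 0.11) and RPS23 (+0.85, SE 0.10) stood apart from the rest. Ribosomal protein genes have many near-identical pseudogenes, so these probes are uncertain. Of 36 oxidative phosphorylation genes 4 rose and 1 fell, of 27 proteasome genes 2 rose and 4 fell, of 22 heat shock and chaperonin genes 0 rose and 5 fell, and of 17 ribosome biogenesis genes 0 rose and 3 fell. In the NRF2 list of 19, 4 rose, 2 fell and 13 did not pass, with HMOX1, haem oxygenase 1, at least 1.16-fold lower. Of 17 p53 targets 5 rose, 4 fell and 8 did not pass.

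Ion transport genes held large changes of both signs. SCNN1G, the gamma subunit of the epithelial sodium channel, rose from 9.02, 8.83 and 8.58 to 10.27, 10.41 and 10.47 (+1.58, SE 0.12; limma adjusted p = 3.5e-06), and the beta subunit gene SCNN1B was at least 1.70-fold higher. The alpha subunit gene SCNN1A read 12.97, 12.96 and 12.83 against 12.94, 12.91 and 12.88 (−0.01, SE 0.07; adjusted p = 0.92), with overlapping groups. Of the 13 genes of this list 6 rose, 3 fell and 4 did not pass, the carbonic anhydrases CA2, CA12 and CA13 being the falls. NPC2, which exports cholesterol from lysosomes, fell from 14.25, 14.13 and 14.25 to 13.19, 12.996 and 12.98, by 1.16 (SE 0.08), and the cathepsin gene CTSC by 0.82 (SE 0.09). Of 21 lysosomal genes 7 rose, 4 fell and 10 did not pass. Metallothioneins and zinc transporters held 5 rises, 3 falls and 1 gene that did not pass, with MT1X at +0.91 (SE 0.09) and MT1G at +0.85 (SE 0.08), again genes of closely similar sequence.

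Some large changes sat beside each other in the genome in a few places. RefSeq placed 8928 tested genes in order along the chromosomes (GRCh38.p14), which gave 8903 pairs of neighbouring tested genes. In 16 pairs both fitted differences were at least 2-fold, and 14 of the 16 went the same way. Changes of at least 2-fold were 2.89% of all tested genes. How many such pairs a random gene order would give was not tested. In 8 of the 16 neither gene lay below background on every array of a group, and 7 of these 8 went the same way, while the other pairs hold a gene with a bound in place of a fold. Rising pairs were KLRC3 with KLRC2, SCNN1G with SCNN1B, SERPINA1 with SERPINA5, EVI2B with EVI2A, RN7SK with CILK1, and a run of H2BC5, H2BC6, H3C4, H2BC8 and H4C8. Falling runs were KRT34 with KRT15 and KRT14, SPRR1B with SPRR2D, and TRAK2 with STRADB and TMEM237. The pairs that went opposite ways were PSMB9 (at least 1.27-fold higher) with HLA-DMA (at least 1.71-fold lower), and CREB5 (−1.14) with CPVL (+1.00). Several of these runs belong to families of similar sequence, and the part of shared probe signal was not tested.

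Changes were found at all signal levels. In the dimmest of 4 equal groups of genes, with mean levels of 5.04 to 7.83, 36.1% were called and 117 changed at least 2-fold, at a median SE of 0.13. In the brightest group, with mean levels of 10.48 to 14.89, 34.5% were called and 30 changed at least 2-fold, at a median SE of 0.09.

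The second hairpin gave other sizes for many of these genes. The difference between hairpins was tested in the same model as sh-35 minus sh-34, which does not use the scramble samples, and 3814 genes (42.7%) passed, 1852 (20.7%) higher and 1962 (22%) lower in sh-35. Among the 3347 genes called with sh-34, 1919 (57.3%) differed between hairpins. Against scramble, sh-35 gave 3731 calls (41.8%), 1821 higher (20.4%) and 1910 lower (21.4%). The values of each hairpin against scramble share the scramble arrays and are given side by side. CD14 read +1.81 with sh-34 and +1.68 with sh-35 (difference −0.14, adjusted p = 0.20), and IL1B read −2.72 and −2.38 (difference +0.34, adjusted p = 0.018). FOLR3 read −2.36 and −2.11 (adjusted p = 0.14), and ITGA2 −0.65 and −0.66 (adjusted p = 0.96).

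Other genes stood apart between hairpins. WDR7 was below background on every sh-34 array and read 8.04, 7.83 and 8.03 with sh-35, beside 7.84, 8.21 and 7.74 in scramble. UBQLN1 read −1.84 with sh-34 and −0.04 with sh-35, a difference of +1.80 (adjusted p = 3.8e-08). CA12 read −1.81 and −0.40, CCND1 −0.99 and +0.09 (difference +1.08, adjusted p = 2.3e-06), and ITGA5 −1.33 and −0.20 (difference +1.13, adjusted p = 1.2e-05). CDH1 read −0.76 and −1.85 (difference −1.09, adjusted p = 2.9e-06), and CRB3 −0.92 and −2.21 (difference −1.30, adjusted p = 9.6e-07), so these were lower still with sh-35. TAGLN read −0.53 with sh-34 and −3.34 with sh-35 (difference −2.81, adjusted p = 9.7e-09). CHST4, a sulfotransferase gene below background on every sh-34 and scramble array, was at least 1.52-fold higher in sh-35 than in sh-34. CST6, a cystatin gene below background on every sh-35 and scramble array, was at least 1.71-fold higher in sh-34 than in sh-35.

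By list, 13 of the 16 histone genes were lower in sh-35 than in sh-34 and 2 were higher, and their median against scramble was −0.08 with sh-35. Of the 41 G2 and mitosis genes, 40 were higher in sh-35 than in sh-34, as were 30 of the 33 DNA replication genes. Against scramble, the G2 and mitosis median was +0.33 with sh-34 and +1.37 with sh-35, so these genes were lower with sh-34 only relative to sh-35. A relation between the histone list and these lists was not tested. Of the 20 largest rises, 14 were lower in sh-35 and 6 did not differ past the threshold, and of the 20 largest falls, 15 were higher in sh-35 and 5 did not. These 40 genes were chosen for their size with sh-34, so those counts are a description.

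**Figure D5:**
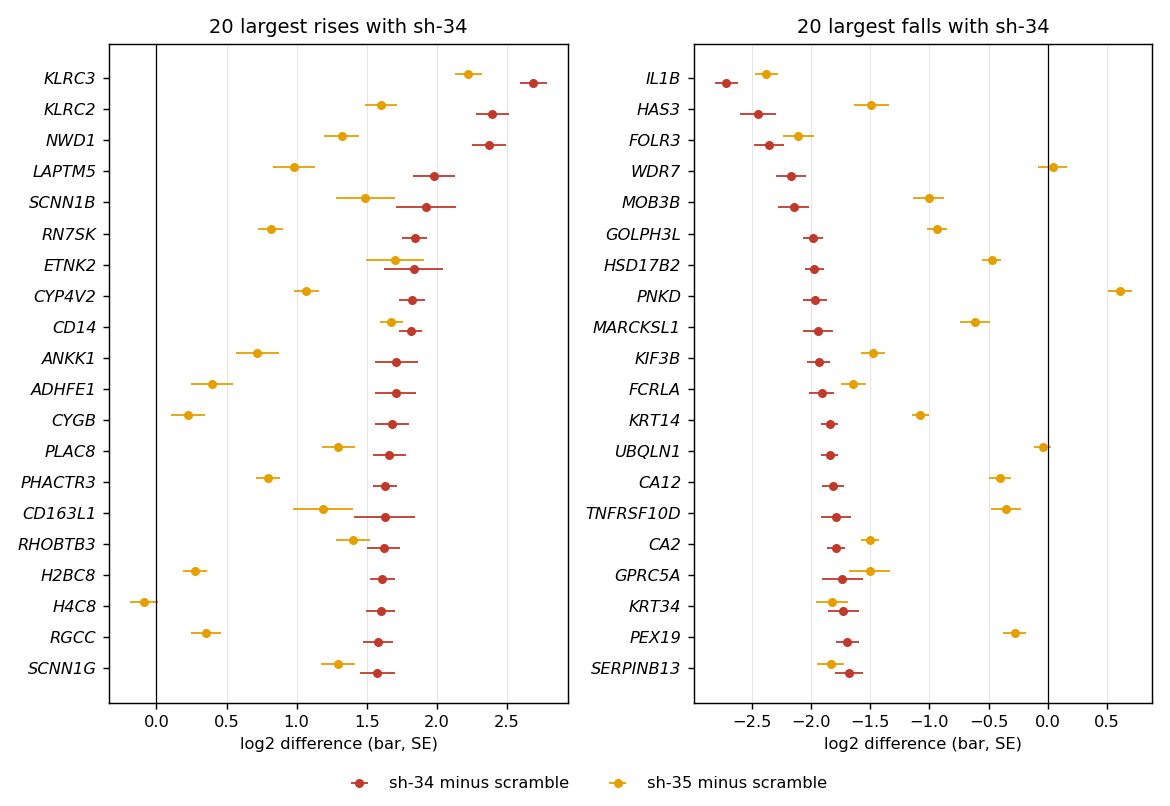
Log2 difference from scramble (horizontal axis) with sh-34 (red) and sh-35 (orange), 3 arrays a group and bars of 1 SE, for the 20 genes with the largest rises (left) and falls (right) with sh-34. Both hairpins share the scramble arrays, and values of genes below background in a group are fitted values and no bound. CD14 and SERPINB13 lie close together for both hairpins, while H4C8, UBQLN1, WDR7 and PNKD lie apart.

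The authors' deposited table lists 200 probes lower and 158 higher with sh-34. Of these, 313 had a gene symbol here and 296 were tested, and all 296 were called here in the same direction. The authors' list comes from these same arrays, so this count is no independent check. Among probes with a gene symbol, the largest fold changes in the authors' deposited table were −6.85 for IL1B, −4.94 for CA12, −4.78 for HAS3 and −4.70 for FOLR3, and 5.19 for KLRC3, 4.46 for KLRC2, 4.22 and 3.32 for the probes of RN7SK and 3.88 for NWD1.

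More than 1 probe was tested for 2012 genes. In 374 of them all probes were called the same way, and in 12 probes were called in opposite directions. These were ALG13, CDKN1A, KDELR3, MAP3K20, MKKS, NBPF10, NOL12, PDCD2, PRMT2, RNF217, S100A13 and UNC45A. S100A13 ranged from −0.34 at its brightest probe to +1.13 at its dimmest. The counts take the brightest probe of each gene, also for these 12, and no direction is drawn from it for the gene.

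Markers of other cell types were mostly below background. Of 10 fibroblast markers 3 were above background on any of the 6 arrays, and COL1A1, COL3A1 and LUM were on none. Of 10 blood cell markers 3 were, CD14 (+1.81), CD68 (−0.54, SE 0.08) and HBB (+0.51, SE 0.10), while PTPRC, CD3D, CD3E, NKG7 and GNLY were on no array. The summed signal of the blood markers was 1497 to 1560 in scramble and 1879 to 2075 in sh-34. Of the endothelial, adipocyte, and melanocyte and neuron markers, 1 each was above background on any array. What part other cells had in the results was not tested.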

How the data were processed

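Per the labels, total RNA of 9 MCF10A samples was labelled as biotinylated cRNA and read on Illumina bead arrays. BeadStudio and Partek appear in the submitters' processing notes, without versions. Per the file headers, the authors deposited 1 intensity and 1 detection p-value for every probe (48803) and sample. The deposited series matrix holds log2 values of the same signals. The authors' deposited table gives p-values, a ratio and a signed fold change (handled as a score) per probe and hairpin.

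Signals were corrected with limma 3.58.1 (R 4.3.3), by the normal-exponential model with detection p-values and an offset of 16, then quantile normalized. One 3-group model was fitted to the 9 arrays (6 residual and 5.42 prior degrees of freedom). Benjamini-Hochberg adjustment ran over 8931 genes at 0.05. A fold against a group below background on every array is a bound set against the dimmest detected signal. The fit was tested on simulated data. Symbols came from an annotation table (28098 probes with 1 symbol, 13 with several, 20692 not listed) and 28059 matched RefSeq by Entrez identifier. Named genes were RND1, members of 61 gene lists, the 5 largest differences between hairpins each way, the authors' extremes and genes with opposite probes. The 20 largest rises and 20 largest falls were also named, taken from called genes whose sh-34 and scramble values did not overlap. CILK1, CPVL, CREB5, EVI2A, EVI2B, STRADB, TMEM237 and TRAK2 were named after their values were seen, as neighbours. Not every list member is named, and 1 list is not reported here. The comparison and lists were chosen with earlier results of these data known.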

Additional observations from a re-analysis of the deposited data

Results flagged for a closer look

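Among 191 genes examined by name, 20 were called lower with 1 hairpin and higher with the other. A called difference between hairpins in the limma model was a condition of this search. Over all 8931 tested genes, 266 met the same conditions. Some of the 191 were named for a large difference between hairpins, so the share among them is not comparable with that over all genes. PNKD read −1.97 with sh-34 and +0.61 with sh-35, a difference of 2.57 (SE 0.10; limma adjusted p = 3.8e-08), at a probe that its other probe did not match. S100A8 read 13.30, 13.15 and 13.12 with sh-35 against 10.58, 10.48 and 10.65 with sh-34, a difference of 2.62 (SE 0.16), and its partner S100A9 differed by 1.72 (SE 0.17). GXYLT1, a xylosyltransferase gene, read −0.81 and +1.59, a difference of 2.40 (SE 0.09). Interferon-stimulated genes among the 20 were IFI27, with a difference of 2.147 (SE 0.17), and TRIM22, with 1.33 (SE 0.12).

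The remaining genes that were lower with sh-34 and higher with sh-35 were TRAK2, with a difference of 2.05, KIF4A with 1.72, CSF3 with 1.43, RASSF5 with 1.23, SHMT2 with 1.16, SFRP1 with 1.07, THBS1 with 0.94 and RNF217 with 0.94. The probes of RNF217 were called in opposite directions for sh-34, so its value here is that of its brightest probe alone.

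Genes that were higher with sh-34 and lower with sh-35 included 3 histone genes. H2AC18 differed by −1.38 (SE 0.11) and H2AC20 by −1.35 (SE 0.09). H2BC4, with no sh-35 array above background, was at least 2.79-fold higher in sh-34 than in sh-35. TPP1, a lysosomal peptidase gene, read +0.24 and −1.67, a difference of −1.92 (SE 0.08). TMEM230 differed by −1.89 (SE 0.10) and ITGB4 by −0.74 (SE 0.10), the latter's rise with sh-34 being lost under median scaling. No technical or biological cause was tested for any of these genes.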

How the results depend on the processing

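The 3347 called genes became 2758 to 2918 when 1 array was left out, with 1377 to 1454 higher and 1365 to 1483 lower, and the 258 genes of at least 2-fold became 253 to 268. The series matrix values gave 1020 rises. At least 2-fold changes numbered 154 with an offset of 50 (61 higher, 93 lower), 149 without background correction (58 higher, 91 lower), and 158 with detection on all 9 arrays (56 higher). The series matrix gave 62 such rises. The share of called genes that were higher was 50.6% and became 39.9% under median scaling and 37.8% with the series matrix values. For sh-35 minus sh-34, genes lower in sh-35 numbered 1200 with the series matrix, of at least 2-fold higher 163 without background correction and 163 with detection on all 9 arrays, and of at least 2-fold lower 79 with the series matrix.

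Averaging a gene's probes turned the sign of ALG13 (0.0924), MAP3K20 (−0.13), NBPF10 (−0.10), NOL12 (−0.0619), PDCD2 (−0.18), RNF217 (0.15), S100A13 (0.13) and NRG1 (−0.32), and for sh-35 minus sh-34 of MAP3K20 (0.0152), PDCD2 (0.11) and S100A13 (−0.48), the setting itself combining probes that differ. For the other settings the cause was not tested. With the replicate block 3295 genes were called. Deviations from group means correlated by 0.01, 0.05 and 0.02 between scramble and sh-34 arrays of equal replicate number. The labels state no pairing, and these values cannot show whether samples were paired in another way or shared a batch. Signal over background limits the dim genes: 96 rises and 68 falls are bounds.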
